A study of Mus musculus with 2 samples.

Results

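The genes described here encode the machinery that licenses, copies and supplies DNA replication, measured in skin of newborn mice. They are a fixed list of 46 genes, chosen with earlier results of these data known. Each was taken wherever the platform annotation gives a probe set exactly that symbol. Of the 46 genes, 44 had such a probe set, out of 8251 genes on the array, and Pole and Tyms did not. The list holds 16 licensing genes, 22 fork genes, 5 nucleotide supply genes and 3 genes (Dtl, Msh6 and Chek1) that act in protein turnover, checkpoint signalling and mismatch repair.

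The groups were K5-/- mice, which lack keratin 5, and wildtype mice, both sampled directly after birth. Total RNA from the skin of 6 animals per group was pooled, and each pool was read on 1 array, so there are 2 arrays and no replicates. The source names say epidermis while titles and protocol say skin. Strain, sex and the design of the K5 allele are not given in the sources used here. Keratin 5 is the basal epidermal keratin whose loss models the blistering disease epidermolysis bullosa simplex. The study asked which genes differ in its absence.

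DNA replication starts when the origin recognition complex, Cdc6 and Cdt1 load the ring-shaped Mcm2 to Mcm7 helicase onto DNA, a step called licensing. Geminin (Gmnn) binds Cdt1 and blocks repeated loading. The kinase Cdc7 and the helicase cofactor Cdc45 then fire the origin, and polymerases, the Pcna clamp and its loader copy the DNA. In skin these genes are active mainly in dividing cells, which lie in the basal epidermal layer and the hair matrix, and many of them are known targets of E2F transcription factors.

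Values are MAS5 signals, in arbitrary signal units, after both arrays were brought to the same trimmed mean. A floor of 246.7 signal units was set, the 40th percentile of all values, and a gene counted as measured when it exceeded the floor on at least 1 array. Where a pair of signals is given, the knockout comes first. Differences are given as log2 ratios of knockout over wild type, or as folds. With 1 array per group no test was possible, and a size below describes these 2 pools. The only measure of technical error was the spread of log2 ratios between probe sets of the same gene, an SD of 0.30 over 838 genes; it holds no variation between animals. The targeted gene could not check the labels, because the Krt5 signals of 81.2 (knockout) and 46.6 (wild type) lay under the floor on both. RNA integrity, read as the ratio of 3′ to 5′ control probe sets, was alike on both arrays: 1.04 (knockout) and 1.06 (wild type) by Actb, 0.841 and 0.831 by Gapdh.

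Replication genes were mostly lower in the knockout pool, with a median below 0 at each step. Of 44 members on the array, 38 were measured, and all of these exceeded the floor on each array; the other 6 lay at the floor on both. Of the measured members, 32 had a log2 ratio below 0, against 46.1% of all 5976 measured genes, and 6 had a ratio above 0, against 53.9%. At least 1.5-fold lower were 19 members, against 5.27% of all measured genes, and 7 were at least 2-fold lower, against 0.703%. Of the 38, 0 were at least 2-fold higher, where 1.54% of all measured genes were, and 1 was at least 1.5-fold higher, where 7.63% were. The median log2 ratio was -0.55, against 0.04 for all measured genes. By step the medians were -0.50 for 13 licensing genes, -0.54 for 20 fork genes, -0.62 for 3 nucleotide supply genes and -0.70 for the 2 measured genes of the last group.

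The 7 members at least 2-fold lower were Gmnn, Fen1, Dtl, Rpa1, Rpa3, Pclaf and Cdt1. They make up 16.7% of the 42 genes that were at least 2-fold lower in all. This count depends on how low signals are treated. It was 4 of 32 measured members under a higher floor (60th percentile), where 19 of all 4269 measured genes were that low. With a pseudocount in place of the floor it was 0 of 38, where 15 of all 5976 measured genes were. The count at least 1.5-fold lower likewise went from 19 to 13 of 32 measured members under the 60th percentile floor. With the pseudocount it was 13 of 38, and Rfc4, Prim1, Prim2, Pold2, Lig1 and Tk1 were under 1.5-fold. The share of all genes past 1.5-fold was not computed under these 2 settings. Several probe sets were present for 13 members: in 4 (Cdt1, Mcm3, Pola2 and Rfc5) at least 2 probe sets exceeded the floor on each array, in 8 the dimmer ones did not, and Orc2 was at the floor with both. Of the measured members, 10 lay below the central 95% of all measured genes (-0.74 to 0.85) and 1, Top1, lay above it. Within 1 probe set SD of 0 lay 6 members, and 19 lay more than 2 such SDs (0.60) below 0. That limit is close to the 1.5-fold limit (0.58), past which 5.27% of all measured genes were lower. The share of all genes within 1 SD of 0 was not computed. These counts are no test, since the SD comes from probe sets on the same 2 arrays.

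**Figure D1:**
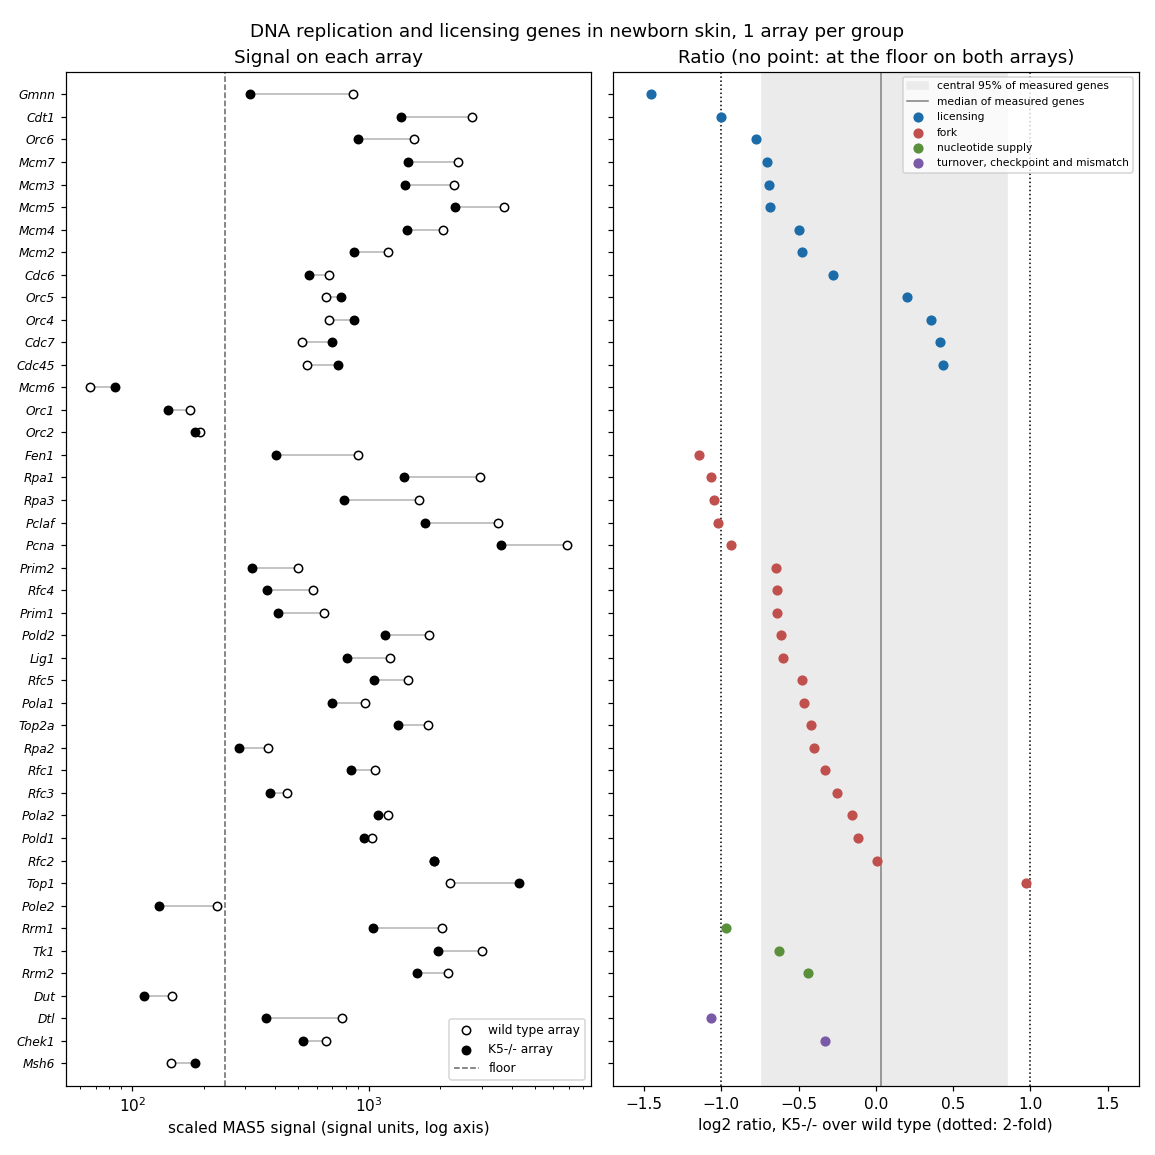
Scaled MAS5 signal of each member on the wild type array (open circles) and the K5-/- array (filled circles) on a log axis, with the floor dashed (left), and the log2 ratio of K5-/- over wild type by step (right), where the grey band is the central 95% of measured genes and dotted lines mark 2-fold. Filled circles lie to the left of open ones for 32 of the 38 measured members, and Top1 is the member farthest to the right.

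The helicase genes were lower together. Mcm7 read 1458 (knockout) and 2378 (wild type), a log2 ratio of -0.71. Mcm3 read 1413 and 2283 (-0.69), and Mcm5 read 2314 and 3721 (-0.69). Mcm4, at 1447 and 2042, had a ratio of -0.50, and Mcm2, at 864 and 1202, one of -0.48. All 5 measured helicase subunits were thus between 1.39-fold and 1.63-fold lower, with ratios from -0.71 to -0.48. Mcm6 cannot be compared, since it read 84.6 and 66.1, under the floor on both arrays. A second Mcm3 probe set read 575 and 1174, with a ratio of -1.03, so the Mcm3 probe sets share the direction and differ in size.

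The regulators of helicase loading included the lowest member. Gmnn read 312 (knockout) and 858 (wild type), 2.75-fold lower (-1.46), rank 8 from the lowest ratio among the 5976 measured genes. Cdt1, the loading factor that geminin inhibits, read 1360 and 2726, 2.00-fold lower. A second Cdt1 probe set read 619 and 994, with a ratio of -0.68. Inhibitor and target were thus both lower in the knockout. Cdc6, the ATPase that works with Cdt1 in loading, read 556 and 674, and its ratio of -0.28 is within the spread between probe sets. The Gmnn signal in the knockout lies close to the floor: the ratio was -0.98 with a pseudocount, and under the 60th percentile floor only a bound of -0.38 remained.

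Origin recognition and firing genes were divided, with Orc6 lower and the other 4 measured genes above 0. Orc6, the smallest subunit of the origin recognition complex, was 1.71-fold lower, at 901 (knockout) and 1543 (wild type). Orc4 read 866 and 677, with a ratio of 0.36, and Orc5 read 757 and 658, with a ratio of 0.20, which is within the SD of 0.30 between probe sets of one gene. Orc1 (142 and 175) and Orc2 (183 and 193) lay under the floor on both arrays. Both firing genes were higher in the knockout: Cdc7 at 694 against 520 (0.42), and Cdc45 at 739 against 547 (0.43), with bounds of 0.07 and 0.16 under the 60th percentile floor. These 4 higher licensing genes each differed by less than 1.5-fold.

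At the fork, the sliding clamp gene Pcna and the genes Pclaf, Fen1 and Lig1 were low together. These 4 genes were grouped after the values were seen, so their shared direction is no separate result. Pcna, the clamp that tethers polymerases, read 3594 (knockout) and 6866 (wild type), 1.91-fold lower (-0.93). Pclaf, a small protein that binds the clamp, read 1718 and 3485, 2.03-fold lower (-1.02). Fen1, the nuclease that trims Okazaki fragments, read 406 and 896, 2.21-fold lower (-1.14). Lig1, the ligase that seals them, was at 809 and 1228, with a ratio of -0.60. All 4 were thus at least 1.5-fold lower, although Lig1 was at -0.48 with a pseudocount. For Fen1 the ratio was -0.81 with a pseudocount and a bound of -0.44 under the 60th percentile floor.

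Replication protein A coats single-stranded DNA at the fork. Its large subunit gene Rpa1 read 1409 (knockout) and 2949 (wild type), 2.09-fold lower. Rpa3, the small subunit gene, read 786 and 1623, 2.06-fold lower. Rpa2, at 283 and 373 and so close to the floor, had a ratio of -0.40. All 3 subunit genes were lower, Rpa1 and Rpa3 by nearly the same fold.

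The clamp loader genes differed less. Rfc4 read 370 (knockout) and 577 (wild type) (-0.64), and Rfc5 read 1046 and 1457 (-0.48). Rfc1 was at 839 and 1055 (-0.33), and Rfc3 at 380 and 452 (-0.25). Rfc2, at 1877 and 1869, was level between the arrays (0.01). Of the 5 loader subunits, 1 was at least 1.5-fold lower. A second Rfc5 probe set, close to the floor at 279 and 257, had a ratio of 0.12, so the Rfc5 probe sets differ in sign.

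The polymerase genes divided by subunit. The primase genes Prim1 (414 in the knockout, 645 in the wild type) and Prim2 (321 and 502), whose products make the RNA primer, had ratios of -0.64 and -0.65. Pola1, the catalytic subunit gene of the priming polymerase, was at 697 and 962 (-0.47). Its partner Pola2 was at 1086 and 1206 (-0.15), while a second Pola2 probe set read 780 and 464 (0.75), the opposite direction. No direction can therefore be given for Pola2.

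For the lagging strand polymerase, the accessory subunit gene Pold2 read 1169 and 1789 (-0.61) and the catalytic subunit gene Pold1 read 953 and 1032 (-0.12). Pole2, a subunit gene of the leading strand polymerase, read 130 and 228, under the floor on both arrays. Among members of these polymerases, only Pold2 was past 1.5-fold.

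The topoisomerase genes, whose products relieve the twist of DNA at the fork, went opposite ways. Top2a, which is expressed mainly in dividing cells, read 1327 (knockout) and 1775 (wild type) (-0.42). Top1, which also serves transcription in resting cells, read 4294 and 2187, 1.96-fold higher (0.97). Top1 had rank 99 from the highest ratio among measured genes and was the only member at least 1.5-fold higher. With quantile normalization and with the lowess correction it was past 2-fold higher.

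Genes of nucleotide supply were lower as well. Rrm1, the large subunit gene of ribonucleotide reductase, read 1038 (knockout) and 2029 (wild type), 1.95-fold lower, just short of 2-fold. Rrm2, the small subunit gene, read 1594 and 2158, 1.35-fold lower (-0.44). Tk1, the thymidine salvage kinase of dividing cells, read 1947 and 3000, 1.54-fold lower. Dut, which removes dUTP, lay under the floor at 112 and 147.

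Of the last group, Dtl read 367 (knockout) and 770 (wild type), 2.10-fold lower (-1.07). Its product is the substrate receptor of a ubiquitin ligase that destroys Cdt1 on the Pcna clamp. Dtl was thus low together with both of those partners. The ratio of Dtl was -0.73 with a pseudocount and a bound of -0.22 under the 60th percentile floor. Chek1, a checkpoint kinase gene, was at 524 and 658 (-0.33), and the mismatch repair gene Msh6 was at the floor on both arrays (184 and 146).

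**Figure D2:**
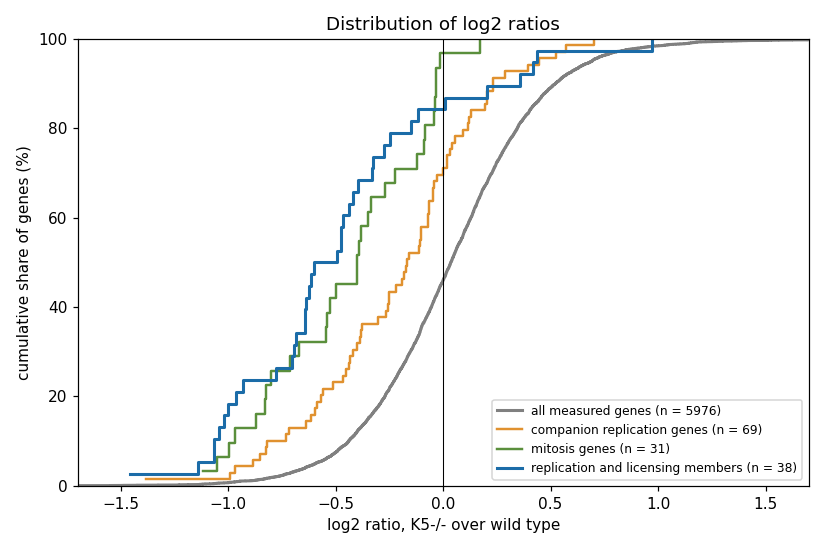
Cumulative share of genes (%) against the log2 ratio of K5-/- over wild type, for 38 members, 69 companion replication genes, 31 mitosis genes and all 5976 measured genes. At a ratio of 0 the curves stand at 84.2% for the members, 96.8% for the mitosis genes, 71.0% for the companion genes and 46.1% for all measured genes.

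Other genes of the same pathways had a median closer to 0 than the members. Both lists were chosen with earlier results of these data known, so the gap between them is a description and no test. Of 78 such companion genes on the array, 69 were measured, and 49 of these (71.0%) had a ratio below 0, against 46.1% of all measured genes. At least 1.5-fold lower were 13 of the 69 (18.8%), against 5.27% of all measured genes, and the companion median was -0.17. The count at least 1.5-fold lower was 6 of 69 with a pseudocount and 8 of 45 under the 60th percentile floor. For these settings the share of all genes was not computed.

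The companion group nearest to the members was replication-coupled chromatin, with a median of -0.47. In it, 10 of 11 measured genes (90.9%) were below 0, against 46.1% of all measured genes. Nasp, a histone chaperone gene, was lowest at 312 (knockout) and 621 (wild type) (-0.99), and Chaf1a, a chromatin assembly subunit gene, was highest at 419 and 357 (0.23). Among 14 genes of S phase control the median was -0.12. E2f8, a repressor of the E2F family, read 419 and 1093, 2.61-fold lower, and was the only companion past 2-fold. Rb1, the retinoblastoma repressor gene, was the highest of this group at 751 and 505 (0.57).

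The 16 other nucleotide genes had a median of -0.17. Shmt1, which feeds folate-dependent thymidylate synthesis, was lowest at 610 (knockout) and 1192 (wild type) (-0.97), and Umps, of pyrimidine synthesis, was highest at 790 and 485 (0.70). The 13 other fork genes had a median of -0.10, with Rnaseh2b, a subunit gene of an RNase H, lowest at 619 and 1119 (-0.85) and Top2b highest at 1166 and 993 (0.23). The 13 checkpoint and repair genes also had a median of -0.10, from Ung (-0.59), which removes uracil from DNA, to the ligase gene Lig3 (0.53). Of the other licensing genes 2 were measured, Topbp1 at -0.73 and Mcm10 at a bound of -0.16. Mitosis genes, which act after replication, had a median of -0.40 over 31 genes. Of these, 30 (96.8%) were below 0 and 10 (32.3%) were at least 1.5-fold lower, against 46.1% and 5.27% of all measured genes. The 1 mitosis gene above 0 was Mki67, at 2539 (knockout) and 2255 (wild type) (0.17), and the lowest was Mad2l1 (-1.12). The difference between these lists was not tested.

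Markers of the cells that skin holds also differed between the pools. Basal keratinocyte markers were lower, with a median of -0.46. All 4 measured of 7 on the array had a ratio below 0, against 46.1% of all measured genes. These 4 markers were the integrin genes Itgb4 (-0.56) and Itga6 (-0.38), the p63 gene Trp63 (-0.54) and the collagen XVII gene Col17a1 (-0.29). The defining keratins Krt5, Krt14 and Krt15 were at the floor on both arrays, the wild type included. Their probe sets therefore give no reading of basal keratin RNA. The summed signal of the 7 basal markers, those keratins included, was 7351 (knockout) and 9943 (wild type). For the 44 replication members the sum was 43764 and 62329.

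Markers of other cells were mostly higher in the knockout, where 53.9% of all measured genes had a ratio above 0. Macrophage and monocyte markers had a median of 0.54 (8 of 8 measured above 0, Itgam and Fcgr3 at the floor), with sums of 12633 (knockout) and 9151 (wild type). Hair follicle markers had a median of 0.37 (13 of 14 above 0, Krt83 and Foxn1 at the floor), with sums of 31885 and 23640. Of these, Krt34 has only a bound (0.99), since its wild type signal of 232 lay under the floor. The highest follicle markers were Krt86 (1.22) and Krtap8-1 (1.04). Msx2 (0.08), Krt35 (0.06), Shh (0.05), Lef1 (0.02) and Krt81 (-0.03) were near 0. The list as a whole does not single out the hair matrix. Suprabasal keratinocyte markers had a median of 0.29 (6 of 8 above 0, none at the floor on both arrays), with sums of 190287 and 162590. Of the 6, Krt77 has only a bound (0.09), since its wild type signal of 101 lay under the floor. With quantile normalization the suprabasal median was 0.13. For dermal fibroblasts the median was 0.27 (7 of 9 above 0, Vim at the floor), with sums of 220923 and 194318. With the mean over probe sets the fibroblast median was 0.07.

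Skeletal muscle markers had a median of 0.22 (12 of 12 above 0, none at the floor), with sums of 120744 (knockout) and 100880 (wild type). For endothelium it was 0.15 (4 of 6 above 0, Flt1 at the floor), with sums of 7213 and 6751, and -0.12 under the 60th percentile floor. The part of the tissue makeup of the pools in the lower replication signals was not tested. In whole skin, fewer dividing cells and less RNA of these genes per cell cannot be told apart.

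**Figure D3:**
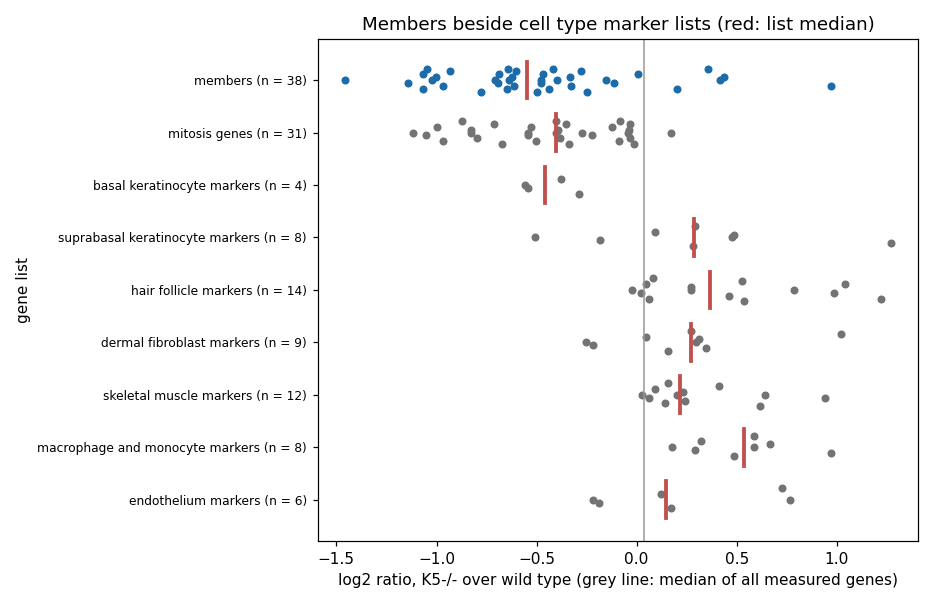
Log2 ratio of K5-/- over wild type for each measured gene (points) of the members, the mitosis genes and 7 cell type marker lists, with the list median in red and the median of all measured genes as a grey line. The members, the mitosis genes and the basal keratinocyte markers have medians of -0.55, -0.40 and -0.46, and the other marker lists have medians above 0.

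The promoters of the members were searched for motifs, which the choice of genes did not use. RefSeq promoter windows of build GRCm38.p6, which run from 250 bases before to 50 after an annotated start, were found for 41 of the 46 members. There was no window for Mcm4, Gmnn, Rfc2, Prim2 and Pole. The motifs were searched on both strands: the E2F-type motifs TTTCCCGC and TTTGGCGC, the CCAAT box bound by NF-Y, and the cell cycle motif TTTGAA. An E2F-type match was found in 13 of the 41 (31.7%), against 3.67% of 4827 measured genes and 1.80% of all 27025 genes with a window. CCAAT was present in 61.0% of the members, against 42.6% of measured genes and 41.1% of all genes, and TTTGAA in 14.6%, against 14.7% and 20.2%.

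Of the 29 members with a ratio below 0 and a window, 10 held an E2F-type match: Mcm3, Mcm5, Mcm7, Cdt1, Cdc6, Pclaf, Rfc3, Pola1, Pold1 and Dtl. By motif, the median log2 ratio was -0.49 for 6 measured members with TTTCCCGC and -0.54 for 28 without it, -0.69 for 5 with TTTGGCGC and -0.48 for 29 without, and -0.64 for 21 with CCAAT and -0.33 for 13 without. For TTTGAA it was -0.45 for 6 with the motif and -0.61 for 28 without. Among the 5 members with a ratio above 0 and a window, 2 held TTTGAA and 0 held an E2F-type match. Since 29.4% of the 34 measured members with a window held an E2F-type match, 5 genes are too few for a contrast. The other 3 E2F-type matches were in Mcm6, Pole2 and Msh6, which lay at the floor. The mitosis list showed another pattern, with 0 of 33 genes with a window holding an E2F-type match and 66.7% holding TTTGAA; for the companion genes the E2F-type share was 20.2% of 89.

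The promoter stretches below run from 200 bases before the start to 5 bases after it, 5′ to 3′ on the strand of the gene, with E2F-type and CCAAT matches of either orientation in capitals. Mcm5 (chr8:75109309-75109513, plus strand), Mcm7 (chr5:138171879-138172083, minus strand) and Cdc6 (chr11:98907951-98908155, plus strand) are measured licensing genes with an E2F-type match upstream. Mcm6 holds such matches at 110 and 47 bases before the start, but lay at the floor and is not shown. Pclaf (chr9:65890123-65890327, plus strand) and Dtl (chr1:191575540-191575744, minus strand) carry it at the start and were at least 2-fold lower. Top1 (chr2:160645697-160645901, plus strand), the member with the highest ratio, is shown for contrast and has 0 matches in this stretch. None of the matches overlapped another.
Mcm5: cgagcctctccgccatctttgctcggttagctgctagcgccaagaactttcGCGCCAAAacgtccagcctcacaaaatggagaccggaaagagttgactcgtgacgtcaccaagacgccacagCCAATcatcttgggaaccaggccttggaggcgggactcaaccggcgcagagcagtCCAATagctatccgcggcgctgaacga
Mcm7: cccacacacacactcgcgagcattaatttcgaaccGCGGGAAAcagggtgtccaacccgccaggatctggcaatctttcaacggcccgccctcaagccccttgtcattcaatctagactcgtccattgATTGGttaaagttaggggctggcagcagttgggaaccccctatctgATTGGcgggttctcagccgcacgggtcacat
Cdc6: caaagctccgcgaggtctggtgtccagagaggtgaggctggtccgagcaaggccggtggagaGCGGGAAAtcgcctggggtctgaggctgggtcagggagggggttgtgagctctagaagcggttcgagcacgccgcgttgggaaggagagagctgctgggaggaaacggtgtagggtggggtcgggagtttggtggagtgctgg
Pclaf: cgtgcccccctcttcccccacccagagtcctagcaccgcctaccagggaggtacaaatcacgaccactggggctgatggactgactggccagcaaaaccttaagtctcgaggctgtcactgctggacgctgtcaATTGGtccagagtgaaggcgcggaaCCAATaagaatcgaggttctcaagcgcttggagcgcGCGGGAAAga
Dtl: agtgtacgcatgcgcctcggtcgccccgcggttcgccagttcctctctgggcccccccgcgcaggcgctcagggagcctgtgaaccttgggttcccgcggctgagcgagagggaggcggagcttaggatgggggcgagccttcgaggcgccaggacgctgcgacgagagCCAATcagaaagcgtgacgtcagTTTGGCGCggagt
Top1: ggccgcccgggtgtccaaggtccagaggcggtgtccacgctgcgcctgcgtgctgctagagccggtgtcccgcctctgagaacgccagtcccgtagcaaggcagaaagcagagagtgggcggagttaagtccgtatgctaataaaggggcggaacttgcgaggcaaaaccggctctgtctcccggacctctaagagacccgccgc
The E2F-type match begins 149 bases before the start in Mcm5, 165 in Mcm7, 138 in Cdc6, 8 in Dtl and 5 in Pclaf. A match describes letters in the window and is no evidence of binding in these samples. Cdc6, with a match, had a ratio of -0.28, and Fen1, with no E2F-type match in its windows, had one of -1.14, so a match did not go with a low ratio in each member.

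**Figure D4:**
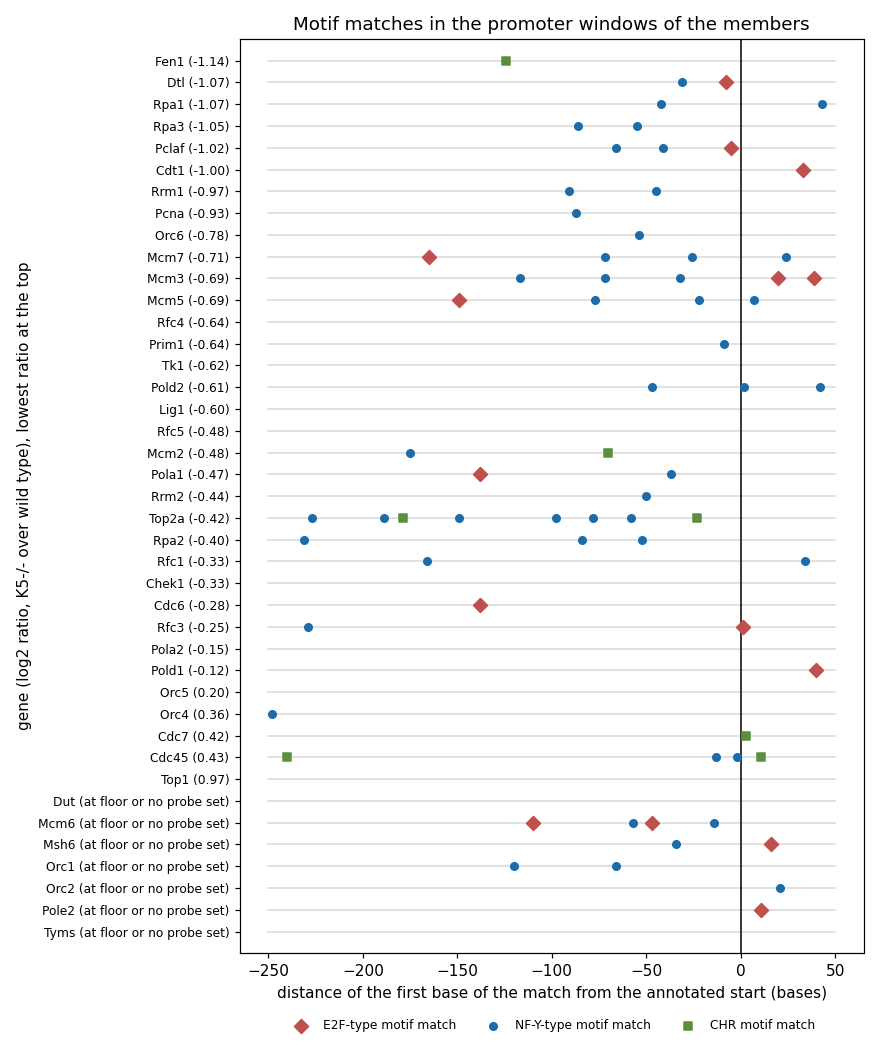
Motif matches in the promoter window of each member with a window (the window farthest upstream where a gene has several), as distance in bases from the annotated start; genes are ordered by log2 ratio, given in brackets, with the lowest at the top. E2F-type matches (red) are found in 10 of the 29 members with a ratio below 0 and in none of the 5 with a ratio above 0, too few for a contrast.

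**Figure D5:**
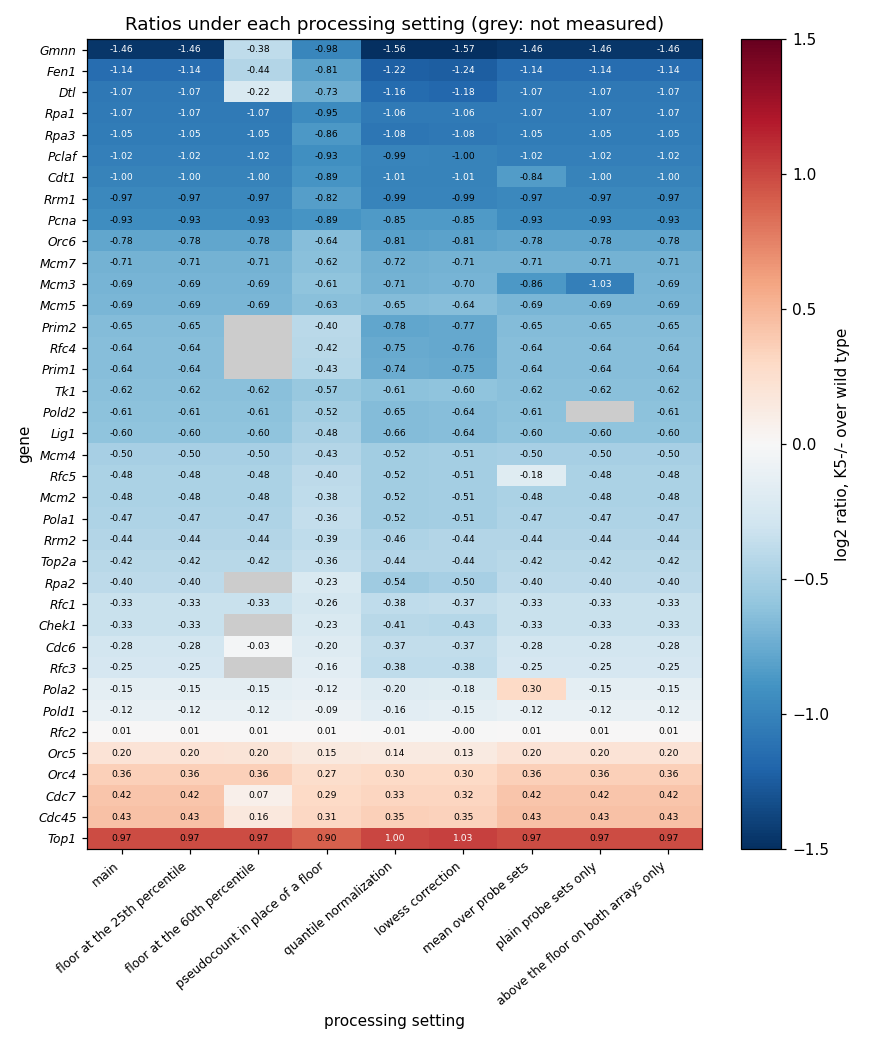
Log2 ratio of K5-/- over wild type for each measured member (rows) under the main processing and 8 alternatives (columns), with grey for genes not measured under a setting. The 32 members below 0 under the main processing are negative in each column that measured them, except Pola2 with the mean over probe sets (0.30). The floor columns and the pseudocount column cannot change a sign. The sizes of Gmnn, Fen1 and Dtl shrink under the 60th percentile floor, where Rpa2, Rfc3, Rfc4, Prim1, Prim2 and Chek1 are grey.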

How the data were processed

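RNA of newborn K5-/- and wildtype skin was read on oligonucleotide arrays, 1 array per group. Per the submitters' processing notes, the authors made the deposited signal intensity values with MAS5 (version, scaling target and detection calls not given in the sources used here). Both arrays were scaled to 1 trimmed mean (2% off each end, factors 1.0001 and 0.9999) over non-control probe sets, the floor was set and log2 taken. Of 12488 probe sets, 66 were controls; of the rest, 10833 had 1 symbol, 396 several and 1193 none. Entrez identifiers of 10817 matched RefSeq (GRCm38.p6), with 0 symbols updated. The brightest probe set stood for a gene; a gene at the floor on 1 array has a bound as its ratio. Members and lists were chosen with earlier results of these data known, and the grouping into complexes after the values were seen. The naming rule takes each member on the array, and of each companion list the lowest, the highest and those past 2-fold. Scripts ran in Python 3.11.15 (pandas 2.3.3, numpy 2.4.6, statsmodels 0.14.6) and were tested on simulated data. With 1 array per group no test was run, and the number of arrays limits the precision. Alternatives were other floors, a pseudocount, quantile and lowess normalization, other choices of probe set, and only genes above the floor on both arrays.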

Additional observations from a re-analysis of the deposited data

How the results depend on the processing

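Of 32 members with a ratio below 0, 31 stayed below 0 under each of the 8 alternatives that measured them. Pola2 did not (0.30 with the mean over probe sets). Other floors, the pseudocount and the limit to genes above the floor on both arrays cannot change a sign here. Only the normalizations and the choices of probe set could move a member across 0. The members' median ranged from -0.58 to -0.41, the licensing median from -0.52 to -0.43, the fork median from -0.60 to -0.40 and the nucleotide supply median from -0.62 to -0.53. The median of the turnover, checkpoint and mismatch genes was -0.33 under the 25th percentile floor (3 genes) and -0.22 under the 60th (1 gene). Members at least 2-fold lower numbered 4 with the 60th percentile floor and 0 with a pseudocount; at least 2-fold higher was 1 member, Top1, with quantile normalization and 1 with the lowess correction. Under the 60th percentile floor and with a pseudocount, members at least 1.5-fold lower numbered 13 each and companions 8 and 6. The share of all genes past 1.5-fold was not computed for these settings. Over all genes, 94 of 7061 measured were at least 2-fold lower under the 25th percentile floor. Under the 60th they were 19 of 4269, and with a pseudocount 15 of 5976. At least 2-fold higher were 205, 44 and 39. Of 297 member ratios recomputed, 287 moved by less than the SD between probe sets, 10 by more, and 0 reversed from a 2-fold call. Many of the 297 could not move. The 25th percentile floor and the limit to genes above the floor on both arrays returned the main value for each member. The mean over probe sets changed only Cdt1, Mcm3, Pola2 and Rfc5, and the other choice of probe set changed only Mcm3 and left Pold2 unmeasured. Under the 60th percentile floor 6 members (Rpa2, Rfc3, Rfc4, Prim1, Prim2 and Chek1) were no longer measured, and Gmnn, Fen1, Dtl, Cdc6, Cdc7, Cdc45 and Orc5 kept only a bound. No paired analysis was possible because each group has 1 array.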

Other observations

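E2F-type matches were also compared over genes outside the replication, companion and mitosis lists. Of 158 such measured genes with a match, 57.6% had a log2 ratio below 0 and 10.1% were at least 1.5-fold lower in the knockout, with a median of -0.04. Of 4546 without a match, 45.2% were below 0 and 4.62% were at least 1.5-fold lower, with a median of 0.04. Genes with a TTTGAA match had a median of 0.06 over 674 genes, against 0.04 over 4030 genes without it, with 44.8% and 45.8% below 0. These are descriptions of 2 arrays with no test.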
